A study of Danio rerio with 6 samples.

Results

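The 44 genes described here encode proteins of the nucleolus and factors that build ribosomes. They were chosen by name from a deposited table, and they are 44 of its 2471 analysed genes. The table compares NFKB+ with NFKB- cells of the zebrafish embryo, all of them sorted by an endothelial reporter. The names taken were pes, ncl, fbl, npm1a and npm3, together with every symbol that starts with nop, nol, utp, rrp, noc, polr1, tsr, imp3, imp4, bop1, nip7, wdr12, wdr43, mrto4, ebna1bp2, bms1, dkc1, gar1, nhp2 or rrs1, leaving out nol4 names. In the authors' table every analysed gene had passed a limit of 2-fold and an adjusted p of 0.01 in this same contrast, so the differences between the sorts below are a description of selected genes and carry no test.

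All embryos carried the reporters NFKB:d2eGFP and kdrl:mCherry and were taken at 22 hours post fertilization (hpf). The first is a short-lived green protein made under NF-kB control, and the second is a red protein driven by the endothelial promoter of the VEGF receptor gene kdrl. Red trunk cells were sorted by green fluorescence into NFKB+ (kdrl+/NFKB+) and NFKB- (kdrl+/NFKB-) cells, about 7000 cells per sample, with 3 RNA libraries of each sort. No embryo was treated and NF-kB was not changed, so the contrast is one of reporter state and the reporter stands in for NF-kB activity. The study asked how endothelial NF-kB bears on the making of hematopoietic stem and progenitor cells. The labels call the libraries biological replicates without saying whether each came from its own pool of embryos. Libraries are named by the numbers of the table's columns, 1 to 3 for NFKB+ and 4 to 6 for NFKB-.

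Ribosomes are assembled in the nucleolus. RNA polymerase I copies the ribosomal DNA into a long precursor RNA, small nucleolar ribonucleoprotein particles modify it and guide its folding, and a succession of assembly factors cuts it and joins it to ribosomal proteins to give the small and the large subunit. The work is costly for a cell, and the genes for it are known for rising and falling together with growth and division. Inherited mutations in parts of the pathway cause disorders of blood and of the craniofacial skeleton.

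Mean normalized reads of the 44 genes were lower in NFKB+ than in NFKB- libraries without exception (44 of 44, against 45.5% of the 2471 analysed genes). The median log2 difference, NFKB+ minus NFKB-, was -1.34, which is 2.53-fold lower. Over the 1124 lower genes of the table the median was -1.52, which is 2.87-fold lower and the larger difference. The median over all analysed genes was 1.08. That value lies at the edge of the table's 2-fold limit and is not a typical difference. The differences lay in a narrow band, from 2.02-fold lower for utp6 to 3.97-fold lower for rrp12. The standard deviation over genes was 0.20 on the log2 scale, against 0.81 over the 1124 lower genes of the table. The table's 2-fold limit sets the near edge of this band, and 18 symbols that the rule covers were not in the table. The 1124 genes also include weakly read ones, such as ddx4 with a mean of 41 normalized reads, while the lowest mean among the 44 was 1051. None of the 44 was lower by 4-fold or more on the deposited values, as 365 genes were (14.8% of those analysed and 32.5% of the 1124 lower genes). The gene rrp12 lay just short of that limit, so this count depends on the processing. The libraries of the sorts did not overlap for any of the 44, as for 99.6% of all analysed genes. The gap between the sorts was wider than the widest range within a sort for 44 of 44, against 84.2% of all analysed genes.

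**Figure D1:**
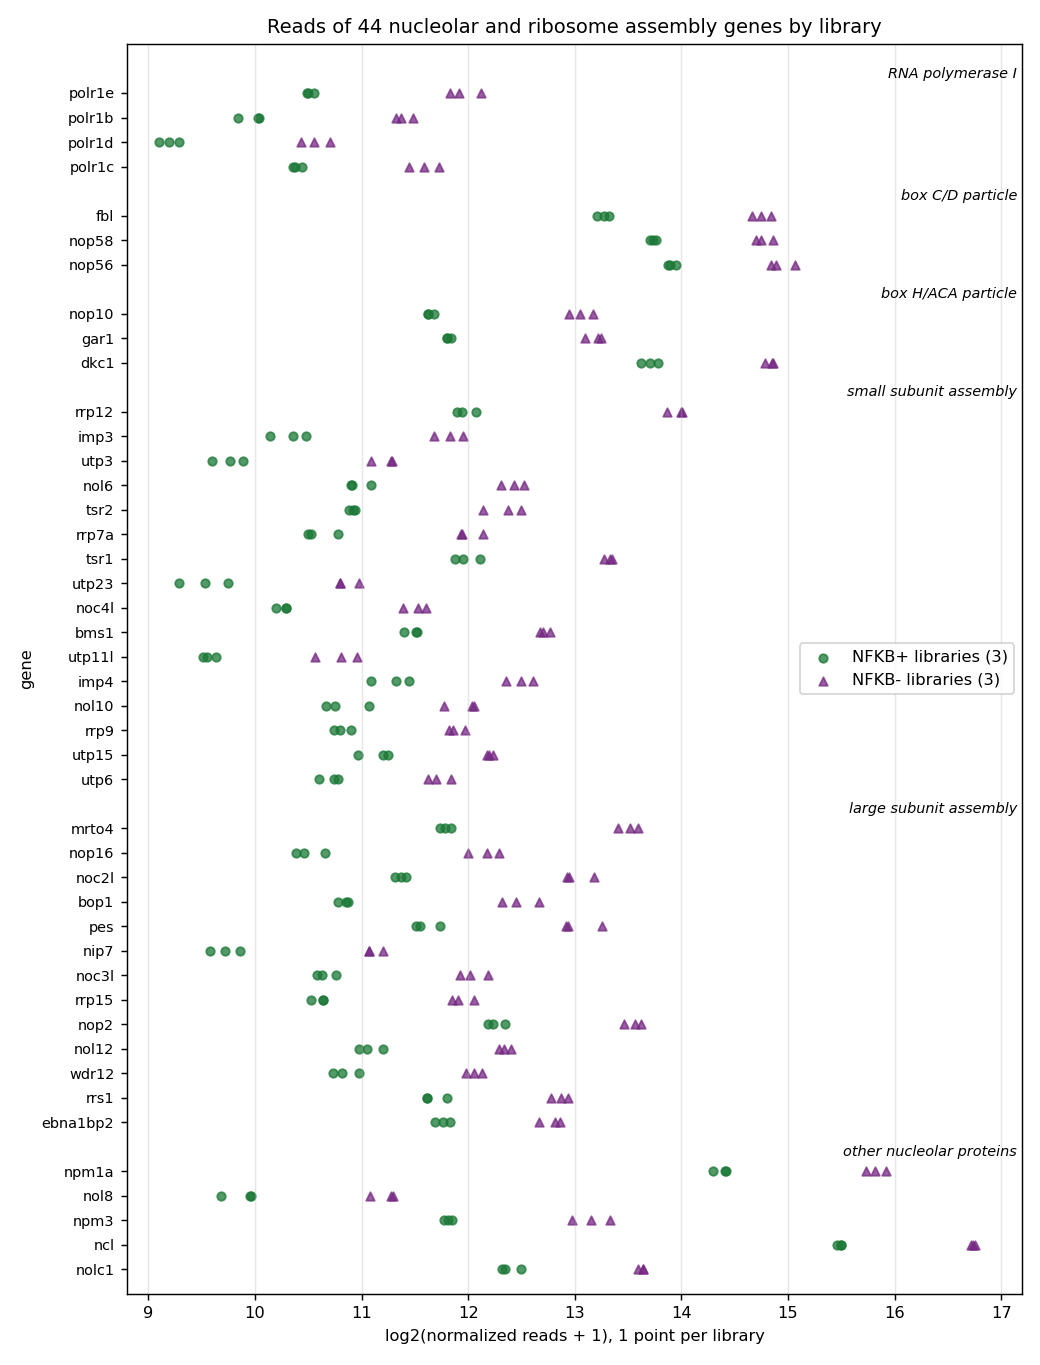
Reads of each of the 44 genes in the 6 libraries, as log2(normalized reads + 1) on the horizontal axis, with genes in rows ordered by role and, within a role, by the size of the difference. Circles are the 3 NFKB+ and triangles the 3 NFKB- libraries. In every row the NFKB+ points lie to the left of the NFKB- points, with gaps from 0.70 (nol10) to 1.79 (rrp12), while no gene spreads over more than 0.453 within a sort.

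A value for a library is the log2 of its reads divided by a size factor, plus 1. Reads were not corrected for transcript length, so values are compared between libraries for a gene and not between genes. The least read value among the 44 genes was 486 reads and the greatest 114133. In bulk samples of this kind, fewer cells that express a gene and less RNA per cell cannot be told apart.

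RNA polymerase I was represented by 4 subunit genes, with a median difference of -1.40. The subunit gene polr1e (NCBI Gene 553733), whose protein belongs to this polymerase alone and helps it to start, had the largest difference, 2.71-fold. Its values were 10.49, 10.56 and 10.49 in NFKB+ libraries 1, 2 and 3 and 11.83, 11.91 and 12.12 in NFKB- libraries 4, 5 and 6. The means were 10.51 ± 0.037 and 11.95 ± 0.15 (SD, n = 3 each), and library 6 was the highest. The gene polr1b, for a subunit of the catalytic core, was 2.67-fold lower. The subunits encoded by polr1c and polr1d are shared with RNA polymerase III. Their transcripts were 2.28- and 2.59-fold lower, so the smallest difference of the 4 was that of a shared subunit. A pair of further subunit genes stood in the table under older names that the rule did not take. These are twistnb (now polr1f) and cd3eap (now polr1g), and they were 2.85- and 2.18-fold lower. The genes of the largest subunit, polr1a, and of polr1h were not in the table and were not analysed here.

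The box C/D particles guide the methylation of ribosomal RNA, and 3 of their core protein genes were members, with a median difference of -1.04. Their enzyme is fibrillarin, a ribose methyltransferase, whose gene fbl (Gene 406275) was 2.79-fold lower. It stood at 13.20, 13.32 and 13.28 in libraries 1, 2 and 3 and at 14.66, 14.75 and 14.84 in libraries 4, 5 and 6. The scaffold protein gene nop56 (Gene 394196) was 2.04-fold lower, close to the limit of the table. It stood at 13.90, 13.87 and 13.95 against 14.84, 14.89 and 15.07. The partner scaffold gene nop58 was 2.05-fold lower. The scaffold genes thus lay just inside the table's limit and the enzyme gene well inside it. The remaining core protein is encoded by snu13a and snu13b, which the rule did not take. They were 2.26- and 2.73-fold lower, though reads of such close copies may be shared.

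The box H/ACA particles guide the change of uridine to pseudouridine, and 3 of their 4 core protein genes were in the table. The synthase dyskerin, named after dyskeratosis congenita, in which its human gene is mutated, is encoded by dkc1 (Gene 613144). It stood at 13.71, 13.62 and 13.78 in NFKB+ libraries and at 14.78, 14.85 and 14.86 in NFKB- libraries, 2.19-fold lower. The gene of the small core protein nop10 (Gene 445391) was 2.66-fold lower, with 11.63, 11.63 and 11.68 against 12.95, 13.05 and 13.17. That of gar1, which lies on the catalytic face, was 2.59-fold lower. The enzyme gene had the smallest difference in this particle, the other way round from fibrillarin. The gene nhp2 was not in the table.

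The assembly of the small subunit was the largest group, with 16 genes and a median difference of -1.29. The gene rrp12 (Gene 563195) encodes a helical-repeat protein needed in yeast for the maturation and export of subunits, and it had the largest difference of the 44, 3.97-fold. Its values were 11.90, 12.07 and 11.94 in NFKB+ libraries and 13.86, 14.00 and 14.01 in NFKB- libraries. The means were 11.97 ± 0.092 and 13.96 ± 0.082 (SD, n = 3 each), and the gap of 1.79 between the sorts was the widest of the 44. Of the early factors that bind the growing precursor, imp3 and utp3 were 2.81- and 2.77-fold lower. The genes nol6 and rrp7a, whose yeast counterparts sit in 1 module, were 2.74- and 2.65-fold lower. The genes of late factors, the GTPase-like tsr1 and the ribosomal protein chaperone tsr2, were 2.53- and 2.68-fold lower.

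Lower down in the same group stood utp23 at 2.52-fold, noc4l at 2.37-fold, the GTPase gene bms1 at 2.36-fold, utp11l at 2.31-fold and imp4 at 2.30-fold. The gene nol10, at 2.18-fold, had the widest standard error of the 44, 0.15, and the narrowest gap between the sorts, 0.70. It stood at 10.75, 11.07 and 10.66 against 12.05, 11.77 and 12.04, so that NFKB+ library 2 and NFKB- library 5 came closest to each other. The genes of rrp9, a protein that binds the U3 RNA, and of utp15 were 2.10- and 2.09-fold lower. The gene utp6 (Gene 393107) had the smallest difference of all, 2.02-fold. It stood at 10.60, 10.77 and 10.74 against 11.70, 11.63 and 11.84, and the next smallest, ebna1bp2 and nop56, stood at 2.03- and 2.04-fold. Genes just outside the limit were not analysed here.

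**Figure D2:**
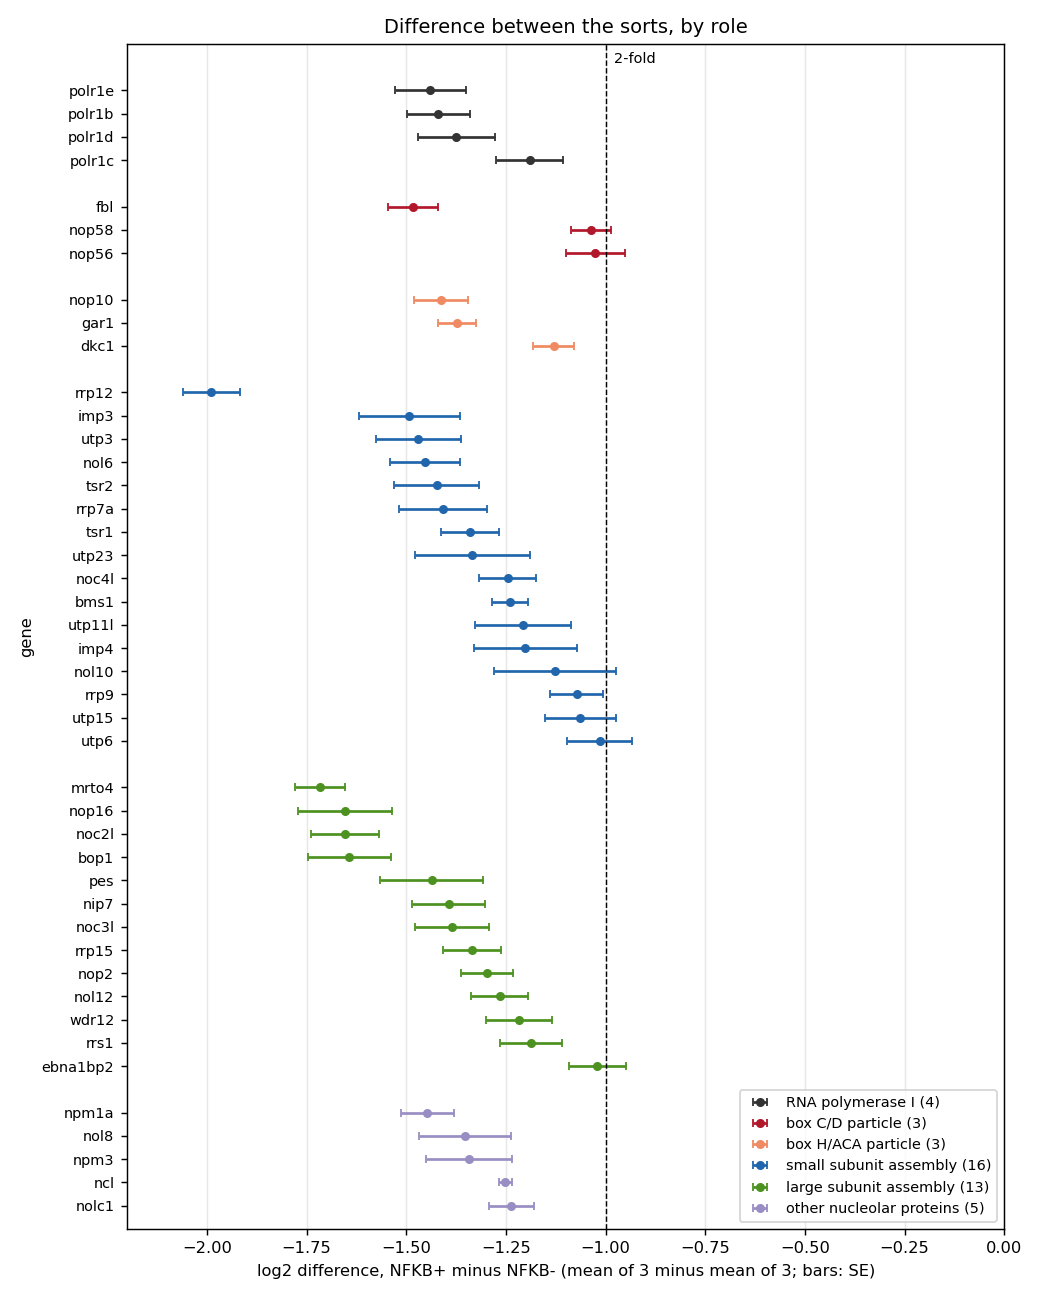
Log2 difference between the sorts (NFKB+ minus NFKB-, mean of 3 libraries minus mean of 3) for each of the 44 genes, coloured by role. Bars are standard errors and the dashed line marks 2-fold, near which the authors' limit on their own fold change lies. The points run from -1.99 for rrp12 to -1.01 for utp6, and the roles overlap.

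The assembly of the large subunit was represented by 13 genes, with a median difference of -1.39. The gene mrto4 (Gene 550350), whose yeast counterpart holds the place of a stalk protein on the immature subunit, was 3.29-fold lower. It stood at 11.74, 11.79 and 11.84 in NFKB+ libraries and at 13.40, 13.52 and 13.59 in NFKB- libraries, which is the largest difference of the group. The gene nop16 (Gene 436807), an assembly factor in yeast, was 3.15-fold lower, with 10.46, 10.39 and 10.66 against 12.00, 12.17 and 12.29. With rrp12, noc2l and bop1, these made up the 5 genes that were lower by 3-fold or more, as were 21.4% of all analysed genes.

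The proteins of pes, bop1 and wdr12 form the PeBoW complex, which is needed for a cut in the precursor of the large subunit. The gene pes is named pescadillo after a zebrafish mutant with poor growth. These 3 genes were 2.71-, 3.12- and 2.32-fold lower. The counterparts of noc2l and noc3l form a pair that travels with the immature subunit in yeast, and their transcripts were 3.15- and 2.61-fold lower. The RNA methyltransferase gene nop2 (Gene 321130) was 2.46-fold lower, with 12.23, 12.19 and 12.34 against 13.46, 13.57 and 13.62. At the small end of the group stood ebna1bp2 (Gene 335049), an assembly factor in yeast. Its values were 11.69, 11.76 and 11.83 against 12.67, 12.82 and 12.86. The rest of the group, nip7, rrp15, nol12 and rrs1, were 2.63-, 2.52-, 2.40- and 2.28-fold lower.

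The remaining 5 genes encode other nucleolar proteins, chaperones and abundant proteins among them, with a median difference of -1.34. Nucleolin (ncl, Gene 767714), which binds ribosomal DNA and precursor RNA, was 2.38-fold lower. It stood at 15.46, 15.50 and 15.50 in NFKB+ libraries and at 16.72, 16.74 and 16.75 in NFKB- libraries. Its standard error of 0.016 was the smallest of the 44. It held 22.5% ± 0.209 (SD, n = 3) of the reads of the 44 genes in NFKB+ and 21.7% ± 0.864 in NFKB- libraries, and these ranges overlap. Nucleophosmin (npm1a, Gene 266985), a chaperone of histones and ribosomal proteins, was 2.73-fold lower, with 14.30, 14.41 and 14.42 against 15.73, 15.81 and 15.92. Its relative npm3 was 2.54-fold lower. The gene nolc1, for a chaperone of the small nucleolar particles, and nol8 were 2.36- and 2.55-fold lower.

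The size of the difference did not follow how strongly a gene was read. Over the 44 genes, Spearman's rho between the difference and the mean log2 level was 0.06. This is a description across genes of the same 6 libraries.

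For some pairs of genes of 1 complex, the difference between the sorts was unequal. The log2 ratio of a pair of genes in a library does not depend on how libraries are scaled, and 18 such pairs in 7 complexes were chosen after the values had been seen. For 11 of the 18 the sorts did not overlap, and for 7 they did. Most of the 11 share a gene with another of them, namely fbl, dkc1, bop1 or polr1c, so they are not 11 separate observations. Among all 946 pairs of the 44 genes, the sorts did not overlap for 47.4%. Whether pairs within a complex differ from other pairs was not tested. The ratio of fbl to nop56 was -0.69, -0.55 and -0.68 in NFKB+ libraries and -0.18, -0.15 and -0.23 in NFKB- libraries. Fibrillarin transcripts were thus lower relative to the scaffold's in each NFKB+ library, and the difference between the sorts was -0.46 ± 0.051 (SE) on the log2 scale. The ratio of nop58 to nop56, the paired scaffolds, was -0.17 ± 0.052 (SD, n = 3) in NFKB+ and -0.16 ± 0.039 in NFKB- libraries, and these overlap.

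In the H/ACA particle both gar1 and nop10 were lower relative to dkc1 in NFKB+ cells, in ratios that share dkc1 and are not separate observations. For nop10 the ratio was -2.08, -1.99 and -2.10 against -1.84, -1.80 and -1.69. The ratio of gar1 to nop10 overlapped between the sorts. In the polymerase, polr1b, polr1d and polr1e were each lower relative to polr1c, with differences in the ratio of -0.23, -0.18 and -0.25. These ratios share polr1c and are not separate observations. For polr1b the margin was narrow, at -0.32 in NFKB+ library 2 and -0.26 in NFKB- library 5. The ratios among polr1b, polr1d and polr1e overlapped. In PeBoW, the ratio of bop1 to wdr12 was -0.0047 ± 0.17 in NFKB+ and 0.42 ± 0.16 in NFKB- libraries (SD, n = 3 each). That of wdr12 to pes overlapped. That of bop1 to pes was narrowly apart, at -0.66, -0.86 and -0.77 in NFKB+ and -0.60, -0.48 and -0.59 in NFKB- libraries. The ratio of imp3 to imp4 was lower in NFKB+ libraries by a narrow margin, at -1.17, -0.72 and -0.97 against -0.68, -0.66 and -0.65. The ratio of noc2l to noc3l was also apart, at 0.71 ± 0.11 against 0.98 ± 0.044, and that of nol6 to rrp7a overlapped.

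**Figure D3:**
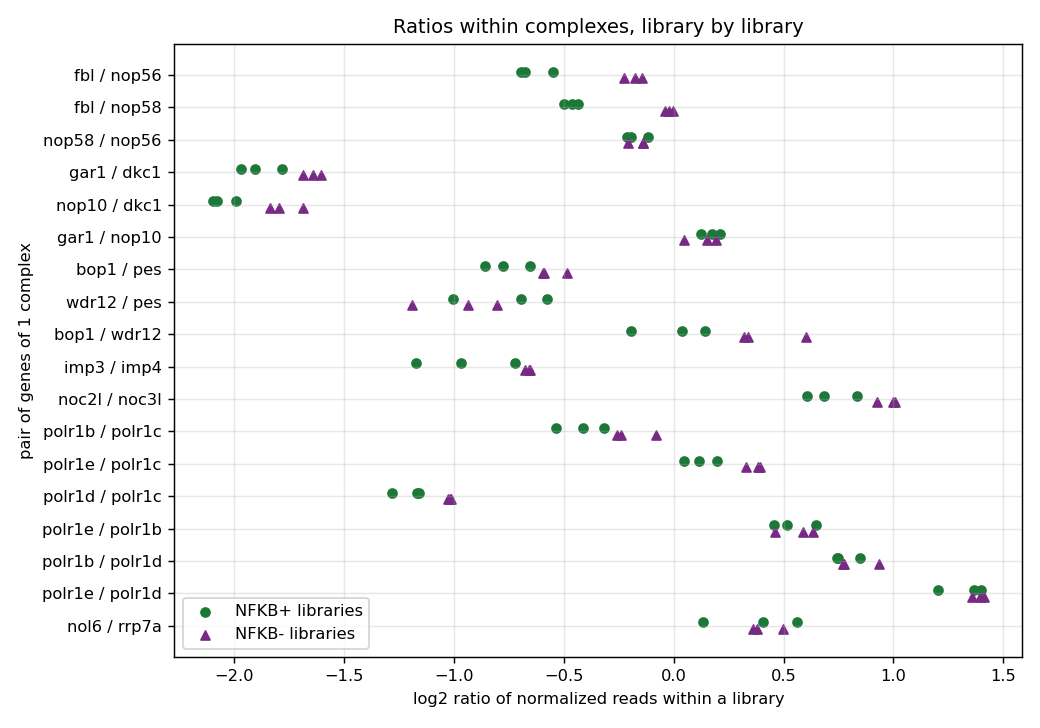
Log2 ratio of the normalized reads of 2 genes within a library (horizontal axis) for 18 pairs of genes of 1 complex. Circles are NFKB+ and triangles NFKB- libraries. The ratios of fbl to nop56 and nop58 stand furthest apart, with differences of -0.46 and -0.45, while that of nop58 to nop56 is mixed.

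Lists of 136 further gene names, which the rule did not take, were drawn up from knowledge of the pathway. Earlier results of these data were known by then, so the lists are a description and no separate support. Of these names, 59 were found in the table and the other 77 were not. Some of the 77 are other names of genes that were, such as mki67ip for nifk and ebp2 for ebna1bp2. The counts of listed names are thus not counts of genes. The NFKB+ level was the lower one for all 59, against 45.5% of all analysed genes. The median log2 difference was -1.31, and no gene was lower by 4-fold or more. Of 18 listed names of polymerase I genes and regulators 3 were in the table. Besides twistnb and cd3eap this was mycb, a gene of the MYC family of growth regulators, at 11.27 ± 0.12 against 12.33 ± 0.10 (SD, n = 3 each), 2.09-fold lower. The initiation factor gene rrn3 and the upstream binding factor gene ubtf were not in the table.

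Of 58 names listed under the small subunit and small nucleolar particles, 35 were in the table, with a median of -1.31. This list was drawn loosely and holds some factors of large subunit assembly, among them ddx27, ddx51 and ddx54. The medians of the lists thus do not separate the subunits. The partner of imp3 and imp4 in the U3 particle, mphosph10, was 2.22-fold lower. In the module that binds the precursor first, known in yeast as UTP-A, heatr1 and wdr75 stood beside utp15 at 3.41- and 2.58-fold lower. In the module UTP-B, tbl3, wdr36 and pwp2h stood beside utp6 at 2.85-, 2.61- and 2.52-fold lower. The partner of the GTPase bms1 in yeast, rcl1, was 2.57-fold lower. Of 60 names listed under the large subunit 21 were in the table, with a median of -1.36. This list was drawn loosely as well. It holds genes of general RNA processing, namely rpp30, rpp38, rpp40, exosc4 and exosc9. The GTPase genes gnl2 and gnl3, the latter known as nucleostemin, were 2.94- and 2.58-fold lower. The export adaptor gene nmd3 was 2.83-fold lower and surf6 3.39-fold lower. None of 85 annotated genes of cytosolic ribosomal proteins was in the table, so the proteins that these factors assemble were not analysed here.

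By name the rule covers 65 gene symbols of the RefSeq annotation, once the nocturnin genes nocta and noctb, which only share its letters, are set aside. Of these, 44 were members and 3 were in the table under older names. The latter were twistnb, cd3eap and diexf (now utp25), with a log2 difference of -1.51 for diexf. The other 18 were not in the table, among them polr1a, nhp2, nop14, utp18, utp20, wdr43 and nop53. Their differences were not analysed here.

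**Figure D4:**
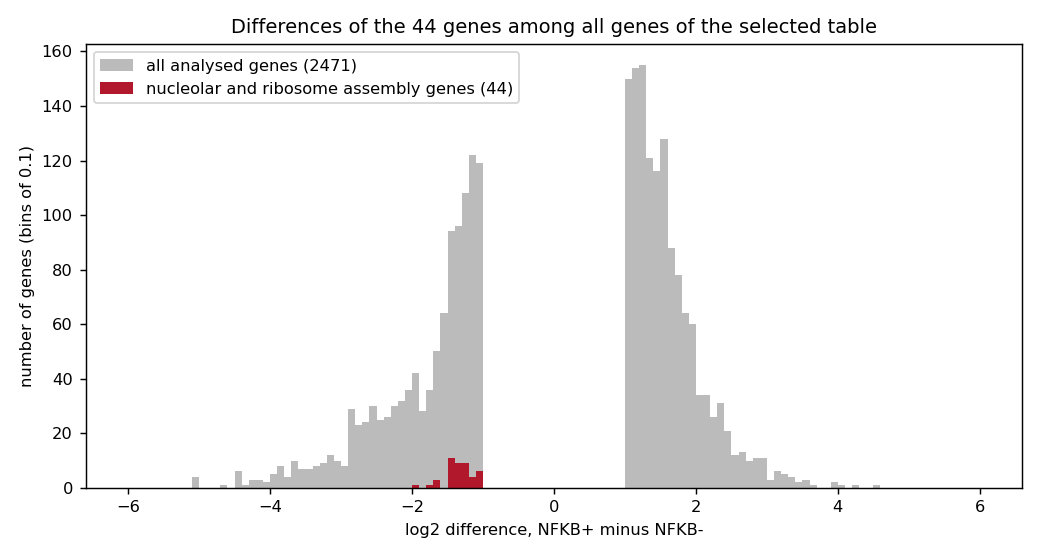
Log2 differences (NFKB+ minus NFKB-) of the 2471 analysed genes in grey and of the 44 nucleolar and ribosome assembly genes in red, in bins of 0.1. The empty middle is the authors' 2-fold limit. The 44 genes lie between -1.99 and -1.01, on the side of 1124 lower genes, and none lies in the tail beyond -2.

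As a share of the reads in the table, the 44 genes took 2.14%, 2.03% and 2.14% in NFKB+ libraries and 3.82%, 3.73% and 3.51% in NFKB- libraries. The NFKB- share was the higher. Globin genes took 39.1% ± 2.90 (SD, n = 3) of the reads there and 7.34% ± 0.588 in NFKB+ libraries. Among the reads outside the globins, the 44 genes took 2.29%, 2.20% and 2.32% in NFKB+ and 5.96%, 6.18% and 6.01% in NFKB- libraries. The sorts are apart by either measure, which the selection of the table at 2-fold largely fixes. Leaving out the globins, themselves lower in NFKB+ libraries, raises the NFKB- share the more. The table held about 8393814 to 15165080 reads per library, which are sums over selected genes and not library depths.

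**Figure D5:**
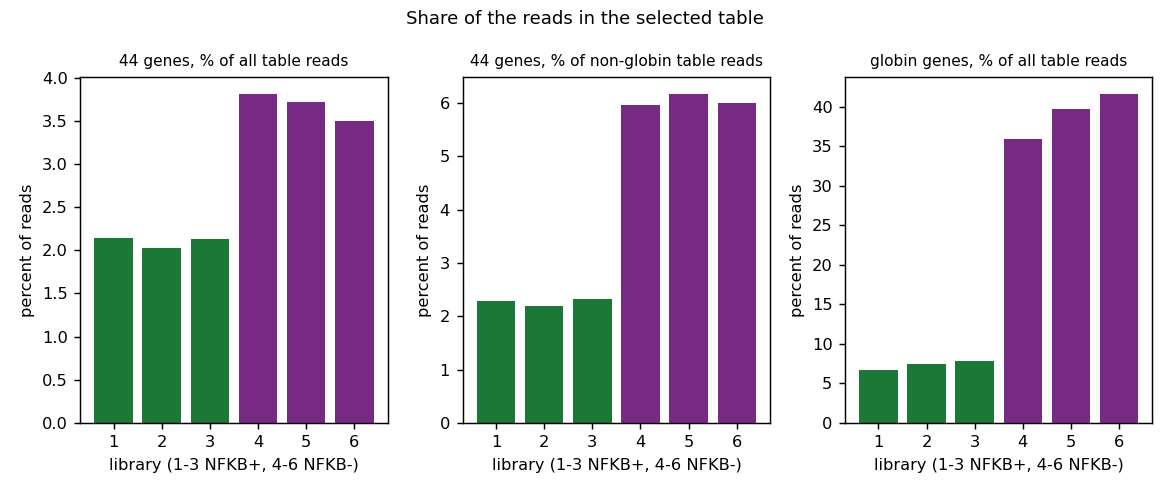
Percent of each library's reads in the selected table held by the 44 genes, by the 44 genes once globin genes are left out of the total, and by globin genes (bars start at 0, 1 bar per library). The 44 genes hold 2.03% to 2.14% in NFKB+ and 3.51% to 3.82% in NFKB- libraries, and the globins 6.69% to 7.84% and 35.9% to 41.7%.

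Markers of the endothelium and of other cell types differed between the sorts. Of all analysed genes, 45.5% were lower in NFKB+ libraries and the rest higher, which is the share to set beside each list below. Of 26 endothelial markers 21 were in the table, all higher in NFKB+ cells, with summed normalized reads of 809976 to 841321 in NFKB+ and 215954 to 291555 in NFKB- libraries. The labelled cell type was thus read in both sorts, and cdh5, the endothelial cadherin gene, stood at 15.57 ± 0.037 and 14.00 ± 0.19 (SD, n = 3 each). Of 25 erythroid markers 20 were in the table, all lower in NFKB+ libraries, and the list's median was -2.75 on the log2 scale. Their summed reads were 744733 to 902002 against 5235405 to 7266090. Of 24 myeloid markers 19 were in the table, all lower, with a median of -3.20 and summed reads of 20348 to 23816 against 190878 to 236216. Of 13 hemogenic and progenitor markers 9 were in the table, all lower, with a median of -2.15 and summed reads of 20363 to 21350 against 63351 to 68340. Of 16 periderm and epidermis markers 5 were in the table, all higher, with summed reads of 2209 to 4653 against 745 to 1273. Of the markers in the table, 1 was at 0 reads in a library, the integrin gene itga2b of the progenitor list in NFKB+ library 3. The median difference of the 44 genes was smaller than the erythroid and myeloid medians. Some single markers had differences of like size. The gene tal1, on both the erythroid and the progenitor list, stood at -1.32. In the progenitor list runx1, adgrg1 and gfi1aa stood at -1.28, -1.47 and -1.01. The other erythroid and progenitor markers in the table stood at -2.15 or below, and the myeloid ones from -4.67 to -1.81. The part of blood cells in the difference of the 44 genes was not tested.

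Libraries of a sort differed among themselves in a shared way on the NFKB- side. Library 6 was the highest NFKB- library for 38 of the 44 genes, and library 4 was the lowest for 35. Over all 1124 lower genes of the table these places went to library 6 in 70.4% and to library 4 in 61.9%. The median deviation of the 44 genes from the mean of their sort was -0.091 in library 4, -0.0047 in library 5 and 0.095 in library 6. The globin share of the reads was 35.9%, 39.7% and 41.7% in the same libraries, and a link to it was not tested. The order of the libraries depended on the scaling. As a share of all table reads, the 44 genes together took 3.82%, 3.73% and 3.51% in libraries 4, 5 and 6. Outside the globins they took 5.96%, 6.18% and 6.01%. In NFKB+ libraries the median deviations were smaller, at -0.026, -0.0019 and 0.026. Over the 44 genes, the chi-square of 2 libraries of a sort, divided by its degrees of freedom, ran from 8.44 to 23.8, above the value of about 1 that counting alone gives. This shows that no library repeats the reads of another, and not that the libraries came from separate pools.

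The sizes depend on how libraries are scaled, while the direction held for 44 of 44 genes under each of 3 rescalings. The count of lower genes among all 2471 analysed genes likewise stayed at 1124 under each. The selection of the table at 2-fold largely fixes this outcome. With libraries brought to the same total in the table the median of the 44 genes was 1.80-fold lower. Their log2 differences then ran from -1.49 to -0.52, and the median of all analysed genes moved by 0.49 as well. With the median ratio over the table, which takes the selected genes as balanced, the median of the 44 genes was 4.67-fold lower.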

How the data were processed

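RNA sequencing of sorted cells was analysed from 1 deposited table. The tools cutadapt, STAR, HTSeq and DESeq2 and the build danRer10 are named in the submitters' processing notes without versions or roles, and no annotation is named. The table deposited by the authors gives, per the file headers, a log2 value per library, a log2 fold change, a signed fold score, and a p-value and adjusted p-value per gene. The log2 values deposited by the authors were found to be log2(reads divided by a size factor, plus 1): with 1 factor per library, 100% of values under 1000 reads came out whole within 0.1 read. Of 2475 rows, 4 were left out because 2 genes, mafba and efna2a, had repeated rows. Means and SDs per sort, differences and their standard errors were computed on the log2 values as deposited (Python 3.11.15, numpy 2.4.6, pandas 2.3.3), tested on simulated data. No p-value was computed, because the authors had selected the genes on this contrast. The strand setting of the counting is not given, so reads of overlapping genes cannot be separated. Every gene was named, and values in every library are given by role for the largest difference and the highest mean level, and for the 3 smallest and 3 largest differences. The values of nol10 were added after they had been seen. The genes, lists and roles were chosen with earlier results of these data known. Names were matched to RefSeq (GRCz12tu) by gene ID for 2444 genes, the 44 included. Planned promoter motif and protein counts were not made, since sequences were not used here.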

Additional observations from a re-analysis of the deposited data

How the results depend on the processing

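The 44 genes were lower in NFKB+ cells under every alternative run, a direction that the selection of the table at 2-fold largely fixes. The median log2 difference of -1.34 became -0.85 with the same total in the table, -1.45 with the same total without globins and -2.22 with the median ratio over the table, scalings that moved the median of all analysed genes by 0.49, -0.11 and -0.88. Leaving out 1 library at a time gave medians from -1.39 to -1.29 and 44 lower genes each time. At 3-fold or more, 5 genes were lower. The absence of a gene at 4-fold did not hold throughout. The gene rrp12 passed that limit without library 2 or library 4 (-2.04 each) and with the same total without globins (-2.10). With the median ratio over the table, the median of the 44 genes itself passed it. Of 528 values for single genes, 117 moved by more than the spread between libraries, all of them under a rescaling, and none reversed. The other 411 are no measure of stability. Leaving out 1 of 3 libraries cannot shift a difference by as much as that spread. The alternatives that neither rescale nor leave out a library express the same values in another way. Leaving out a library moved a gene by at most 0.12. Every gene had a mean above 500 normalized reads, so that filter removed none. No paired analysis was possible because library numbers run from 1 to 6 over both sorts and name no replicate of the labels. The selection limits these results, since genes under 2-fold were not analysed here.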

Other observations

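The genes next to the 44 in the genome were counted, and no test was run on these few genes. In the order of protein-coding genes of the RefSeq annotation, 12 of their 88 flanking genes (13.6%) were in the table, against 13.6% of the flanking genes of all table genes. Of these 12, 8 were lower in NFKB+ cells, which is 9.09% of the flanking genes. The like share was 9.04% for the lower genes of the table and 6.60% for all table genes. Among them were odc1 beside nol10, pus1 beside noc4l and eif3hb beside utp23, while b3gnt7, beside ncl, was higher in NFKB+ cells. No pair of the 44 genes were direct neighbours.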
